A study of Mus musculus with 12 samples.

Results

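Interferon response genes are the transcripts that cells raise when they sense type I interferon or interferon gamma. Of 40 such genes listed, 29 are typical of type I interferon and 11 of interferon gamma, although many respond to both. They were followed in whole liver of mice aged 2 weeks, on 12 Affymetrix mouse arrays, 3 for each of 4 genotypes. A transcript cluster, the array's probe group for 1 locus, was used only where its annotation named a single gene, and each gene was taken by its cluster of highest mean. By that rule 33 of the 40 genes had a value (27 of 29 type I and 6 of 11 gamma), among 19938 genes in all. Isg15, Gbp2, Gbp6, Igtp, Irgm2 and Tgtp1 lay on clusters that also named a near-identical or neighbouring gene, and Ifi44 had none, so these 7 are not described further.

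The genotypes, which the sample titles give, were Stat3Fl/Fl (floxed), Stat3Δhc (the Stat3 deletion), Stat3Fl/FlMdr2-/- (floxed Stat3 with the Mdr2 knockout, called Mdr2-/- floxed) and Stat3Δhc Mdr2-/- (both alterations, called Mdr2-/- Stat3Δhc). The labels name neither the Cre line that deletes Stat3 nor the mouse strain. The study's stated aim was to find pathways behind cholestasis and bile acid injury in the mice with both alterations. Mdr2 is the canalicular phospholipid transporter, and its loss leaves bile acids without phospholipid in the bile and injures the bile ducts. Stat3 transmits interleukin 6 family signals in hepatocytes.

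Type I interferon signals through its receptor and the kinases Jak1 and Tyk2 to a complex that holds Stat2 and Irf9 and binds the interferon-stimulated response element (ISRE). Interferon gamma, made mainly by T cells and NK cells, signals through Ifngr1 and Ifngr2, and its response acts through the gamma-activated site (GAS). Irf1 and Irf8, themselves induced by gamma, extend that response. In liver, hepatocytes, Kupffer cells and endothelial cells can all respond.

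The ISRE core, which is GAAA, any 2 bases and GAAA, was searched on both strands in the 250 bases before each annotated start, using RefSeq promoters of build GRCm38.p6. It was found in 2.98% of all 32851 promoters and in at least 1 promoter of 13 of the 30 listed genes that have an entry (43.3%), against 3.46% of all 27025 genes. The GAS letters, TTCNNNGAA, which read the same on both strands, were found for 10 of the 30 (33.3%) against 8.13% of all genes. Among the 19 genes whose values are given array by array below, 14 have an entry and 6 hold the ISRE core. They are Bst2, Gbp3, Ifit1, Irgm1, Oas1a and Ifit3. The first 4 are shown, since their match lies before every annotated transcript of the gene. Their signals did not all go the same way, with Bst2 falling and Gbp3 rising with Mdr2 loss in Stat3Δhc liver. In Oas1a and Ifit3 the match lies inside the span of another annotated transcript, and it is not shown. Capitals mark the ISRE core, which reads TTTC, any 2 bases and TTTC where it lies on the opposite strand, and matches that overlap share bases. The windows are chr8:71537562-71537627 (minus strand) for Bst2, chr3:142559974-142560015 (plus) for Gbp3, chr19:34640760-34640838 (plus) for Ifit1 and chr11:48871421-48871475 (minus) for Irgm1, each read 5′ to 3′ towards the gene.
Bst2: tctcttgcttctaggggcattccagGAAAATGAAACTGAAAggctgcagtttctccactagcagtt
Gbp3: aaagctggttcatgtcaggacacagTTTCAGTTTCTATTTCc
Ifit1: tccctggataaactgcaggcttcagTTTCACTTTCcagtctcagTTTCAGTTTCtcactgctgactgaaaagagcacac
Irgm1: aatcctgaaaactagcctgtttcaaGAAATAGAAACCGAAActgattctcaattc

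Bst2 also holds a GAS match, at 136 to 128 bases before the start, and that match overlaps its ISRE core. Irf8 has 2 GAS matches and Irf1 has 1, with no ISRE core in either. Ubd, Oasl2, Irf9, Xaf1, Trim21, Cmpk2 and Ddx58, all with an entry, hold neither set of letters in this window. A match is a description of the letters only.

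Several features of the arrays move with the genotypes. Xist was high (11.27 to 11.34) and Y-linked signal low in every Mdr2-/- floxed array and in Mdr2-/- Stat3Δhc A. Xist was low (3.78 to 4.79) in the remaining 8, so that sex and Mdr2 loss cannot be told apart in the floxed comparison. Sex is also unequal between the Mdr2-/- genotypes, and in the comparison of Mdr2 loss in Stat3Δhc liver. The mean log2 signal of 8 skeletal muscle genes lay between 8.65 and 9.46 without the knockout and between 5.29 and 5.69 with it, and 8 of 8 fell in both Mdr2 comparisons. The hepatocyte markers averaged 12.33 to 12.66 in floxed, 12.76 to 12.79 in Stat3Δhc, 12.42 to 12.56 in Mdr2-/- floxed and 12.65 to 12.77 in Mdr2-/- Stat3Δhc. They were thus higher with the Stat3 deletion, without overlap, in both Mdr2 genotypes. Of 8 tested, 1 was called higher in each Stat3 comparison and 1 lower in each Mdr2 comparison. Of all tested genes 1.51% rose without the knockout and 1.87% on it, and 5.65% fell in floxed and 10.5% in Stat3Δhc liver. Alb stood at the top percentile of every array. The source name field exchanges the Mdr2-/- genotypes against the other fields, and the arrays were grouped by title, which the Stat3 signal followed. Exchanging those groups would turn the sign of the Stat3 effect on the knockout. It would also change the arrays compared for Mdr2 loss in both Stat3 genotypes, and the difference of the effects. The labels do not say whether each array is a separate mouse, and p-values then measure only the spread between these samples.

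**Figure D1:**
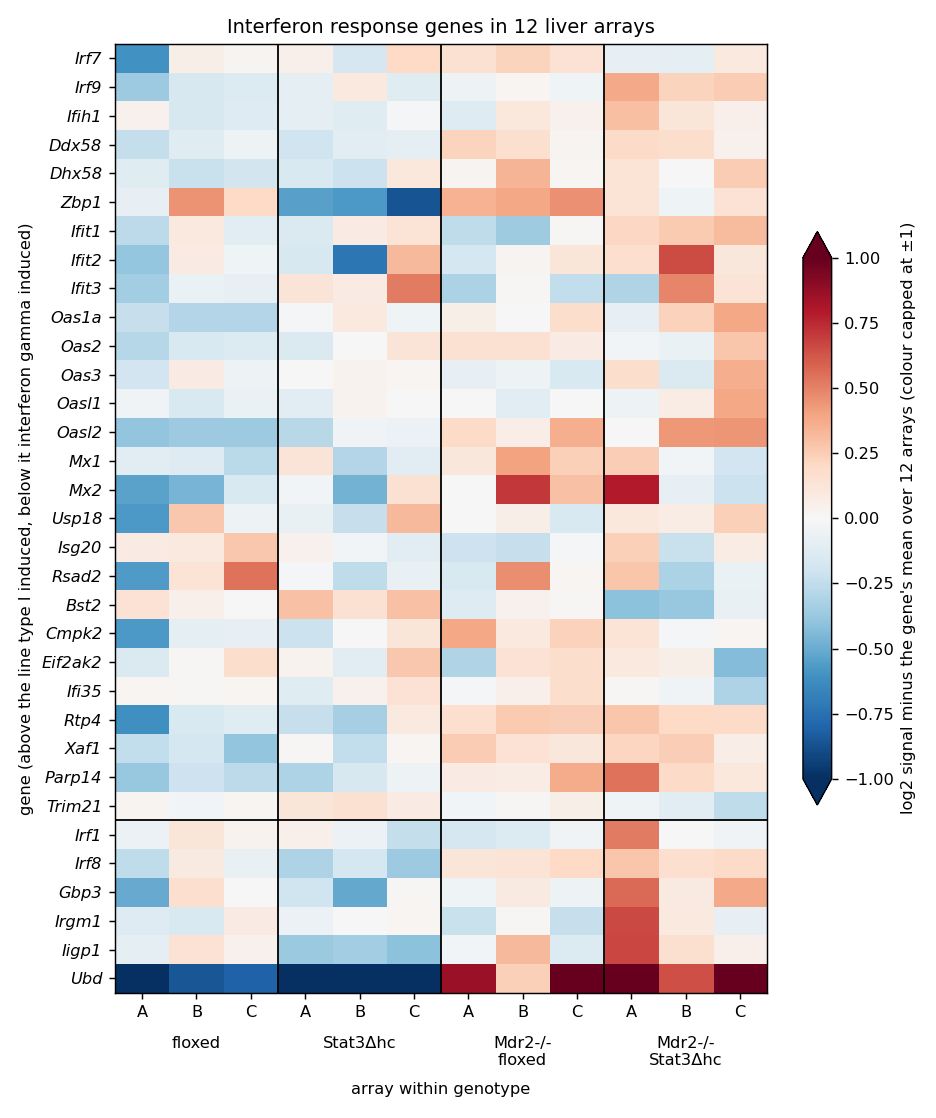
Log2 signal of the 33 measured interferon response genes (rows) in 12 arrays (columns A, B and C of each genotype), as the difference from each gene's mean over the arrays, with red higher and blue lower and the colour capped at ±1. Type I members are above the horizontal line and gamma members below it. Ubd is low in all 6 arrays without the Mdr2 knockout and high in the 6 Mdr2-/- arrays.

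Ubd was the member with the largest change in the series. It encodes FAT10, a ubiquitin-like modifier induced by interferon gamma together with tumour necrosis factor. Its log2 signal was 4.91, 5.35 and 5.4 in floxed arrays A, B and C, and 5.2, 5.2 and 4.95 in Stat3Δhc. In Mdr2-/- floxed it was 7.07, 6.45 and 7.31, and in Mdr2-/- Stat3Δhc 7.87, 6.85 and 7.95. All 6 Mdr2-/- arrays were higher than all 6 others, while the Mdr2-/- genotypes overlapped each other. With Mdr2 loss Ubd was 3.3-fold higher in floxed liver (log2 change 1.72, SE 0.27, limma with Benjamini-Hochberg adjusted p = 0.0014). In Stat3Δhc liver it was 5.42-fold higher (2.44, SE 0.27, adjusted p = 0.000103), with 3 arrays in each group. It was above the array's 40th percentile, the level that at least 3 arrays had to pass for a gene to be tested, in 6 of 12 arrays. These were the Mdr2-/- arrays, so that its test was reached only through the groups where it was high. Without 1 array the changes ran from 1.54 to 1.97 and from 2.24 to 2.79. In a fit adjusted for the Xist signal and Y-linked signal (the sex-adjusted fit), which depends on how Mdr2-/- Stat3Δhc A differs from its 2 group mates, the floxed change was 1.26 (adjusted p = 0.34).

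**Figure D2:**
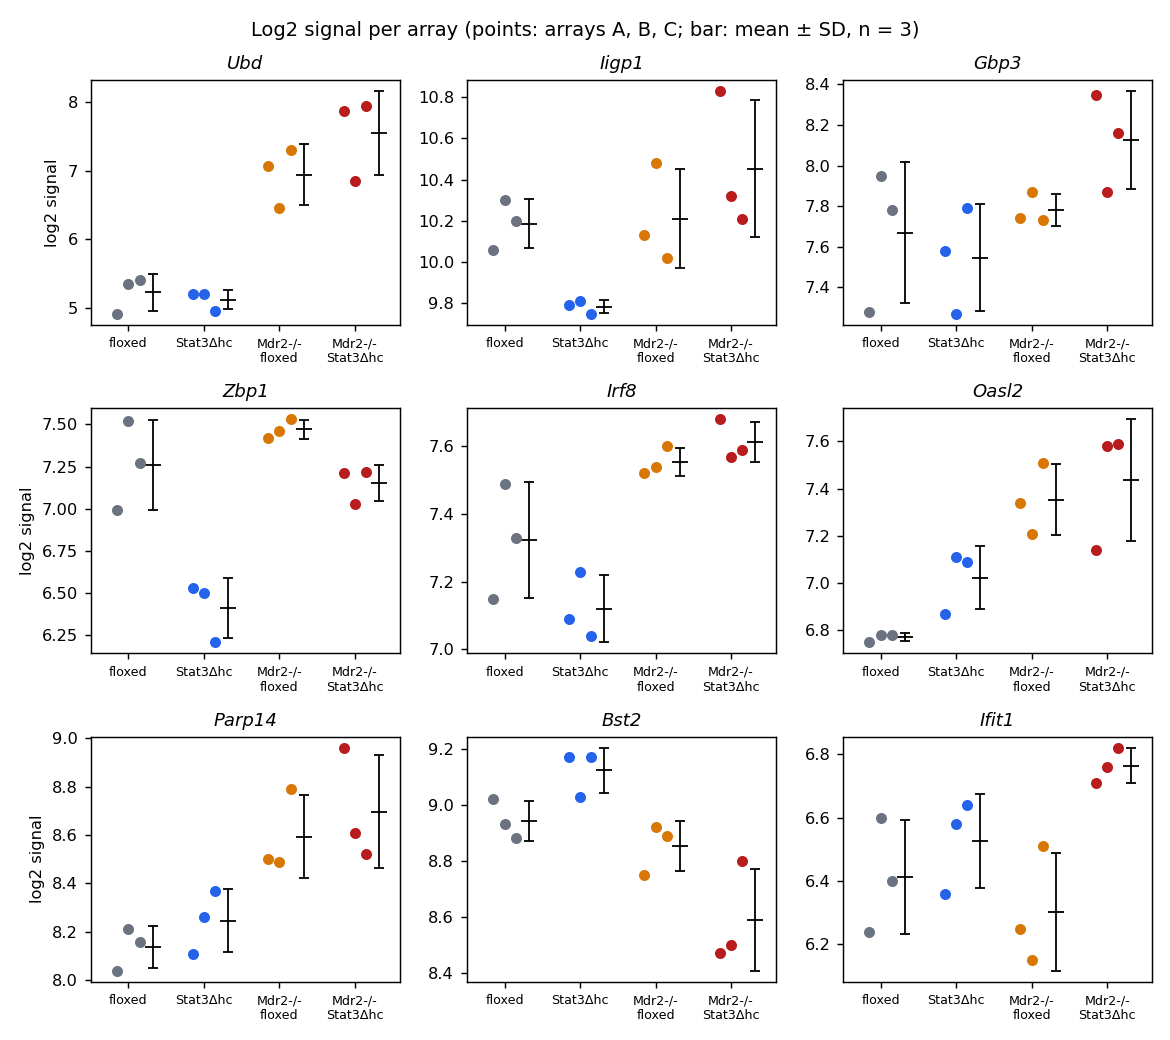
Log2 signal (vertical axis, its range differing between panels and not starting at 0) of 9 members in each array, coloured by genotype, with the mean ± SD of 3 arrays beside the points. Ubd separates the Mdr2-/- arrays from the rest, Zbp1 and Iigp1 are lowest in Stat3Δhc, Bst2 has its lowest mean in Mdr2-/- Stat3Δhc and Ifit1 is highest there.

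Mdr2 loss in floxed liver compares Mdr2-/- floxed with floxed arrays, where Stat3 is intact but sex and the skeletal muscle signal differ too. Beside Ubd, the members that rose were the OAS family genes Oasl2 and Oas1a and the antiviral genes Rtp4, Cmpk2, Parp14 and Xaf1. In all 7 of the 32 tested members rose and 0 fell, where 7.12% of all 13977 tested genes rose and 5.65% fell (12.8% in either direction). The median log2 change was 0.11 over the members and 0 over all genes, and 24 members against 49.2% of all genes had a change above 0. By class, 6 of 26 type I members (median 0.15) and 1 of 6 gamma members (median 0.07) rose. That 1 was Ubd, which was tested only through the Mdr2-/- arrays, and the other 5 had changes from -0.15 to 0.23. In 14 members the Mdr2-/- floxed arrays all lay above the floxed arrays and in 1, Isg20, all lay below, against 18.2% and 15.1% of all genes. In bulk tissue a change in the number of cells of a type and a change in RNA per cell cannot be told apart.

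Oasl2 encodes an OAS-like protein that restrains viral RNA. It was 6.75, 6.78 and 6.78 in floxed liver and 7.34, 7.21 and 7.51 in Mdr2-/- floxed, without overlap (log2 change 0.58, SE 0.12, adjusted p = 0.00812). It was called without any 1 array (0.00216 to 0.0406). In the sex-adjusted fit, which depends on Mdr2-/- Stat3Δhc A, it was also called, at a larger change (1.02). Oas1a, whose product makes the oligoadenylates that activate RNase L, was 5.98, 5.92 and 5.92 against 6.27, 6.21 and 6.39. The groups did not overlap (0.35, SE 0.11, adjusted p = 0.0482), but the call ended without any of 10 arrays, all but Mdr2-/- Stat3Δhc A and C (0.058 to 0.162). Oas1a too was called in the sex-adjusted fit, at 0.74.

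Rtp4 encodes a chaperone for receptors that is raised by interferon. It was 7.36, 7.82 and 7.85 in floxed liver and 8.14, 8.23 and 8.22 in Mdr2-/- floxed (log2 change 0.52, SE 0.13, adjusted p = 0.0224). Xaf1, an antagonist of the apoptosis inhibitor XIAP, was 6.31, 6.38 and 6.16 against 6.81, 6.7 and 6.67 (0.44, SE 0.1, adjusted p = 0.0108). Both genes stood higher in all 3 Mdr2-/- arrays. Parp14, an ADP-ribosyltransferase, was 8.04, 8.21 and 8.16 against 8.5, 8.49 and 8.79 (0.46, SE 0.12, adjusted p = 0.0274). Cmpk2, a mitochondrial nucleotide kinase gene, was 5.58, 6.06 and 6.07 against 6.54, 6.25 and 6.38 (0.48, SE 0.13, adjusted p = 0.0337), and floxed array A stood lowest, as it did for Rtp4 and Parp14. Single arrays ended these calls. For Rtp4 they were floxed A and Mdr2-/- floxed B and C (0.062 to 0.0769), and for Xaf1 floxed C (0.0544). For Parp14 they were floxed A, B and C and Mdr2-/- floxed C (0.0554 to 0.118), and for Cmpk2 floxed A and Mdr2-/- floxed A and C (0.0846 to 0.119). In the sex-adjusted fit the 4 were not called (adjusted p = 0.555, 0.473, 0.92 and 0.639 for Rtp4, Xaf1, Parp14 and Cmpk2), and the log2 change of Parp14 was 0.07.

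Mx2, a GTPase that blocks viral replication, had the second largest change and did not pass. It was 5.38, 5.45 and 5.76 in floxed liver and 5.91, 6.62 and 6.21 in Mdr2-/- floxed (0.72, SE 0.25, adjusted p = 0.083). These groups did not overlap, and it passed without array A of Mdr2-/- Stat3Δhc (0.0253), where it stood at 6.71. In the sex-adjusted fit the log2 change was -0.22 (adjusted p = 0.845). Its neighbour in function Mx1 was not tested, since 0 arrays passed the filter, and lay between 4.8 and 5.49. The other members that did not pass ranged from Isg20, a nuclease gene (-0.3, adjusted p = 0.11), to Irf7, the main amplifier of type I interferon (0.34, adjusted p = 0.188).

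Mdr2 loss in Stat3Δhc liver makes the same comparison where Stat3 is deleted. Here 9 of 32 members rose and 2 fell, where 6.9% of all tested genes rose and 10.5% fell (17.4% in either direction). The risers were Ubd, the sensors Zbp1 and Ddx58, the gamma-induced GTPases Iigp1 and Gbp3, the factors Irf8 and Irf9, and Oasl2 and Parp14. Bst2 and Trim21 fell. The median log2 change was 0.23 over the members and -0.02 over all genes, and 26 of 32 changes against 46.8% of all genes were above 0. The Mdr2-/- arrays all lay above the others for 13 members and all below for 2, against 14.9% and 22.3% of all genes. Of 26 type I members 5 rose and 2 fell (median 0.16), and of 6 gamma members 4 rose (median 0.54). Among the 4 was Ubd, which was tested only through the Mdr2-/- arrays. Of the other 5 gamma members 3 rose. With cyclic loess the split over all members was 11 higher and 1 lower. With median centring 6 members rose and 2 fell, and of 2455 genes then called 722 were higher, against 964 of 2431. In the sex-adjusted fit Irf9 (adjusted p = 0.074), Ddx58 (0.0911), Parp14 (0.0688) and Gbp3 (0.0969) were not called.

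The gamma-induced GTPases attack the membranes around intracellular microbes. Iigp1 was 9.79, 9.81 and 9.75 in Stat3Δhc and 10.83, 10.32 and 10.21 in Mdr2-/- Stat3Δhc. The groups did not overlap, and array A was the highest (log2 change 0.67, SE 0.15, adjusted p = 0.0108). Without 1 array the change ran from 0.48 to 0.79 (0.00764 to 0.0421). The guanylate binding protein gene Gbp3 was 7.58, 7.27 and 7.79 against 8.35, 7.87 and 8.16 (0.58, SE 0.17, adjusted p = 0.0394). Its lowest Mdr2-/- Stat3Δhc array stood just above its highest Stat3Δhc array, and the call ended without Stat3Δhc A or B, floxed C, Mdr2-/- floxed C, or Mdr2-/- Stat3Δhc A or C (0.0508 to 0.109). In floxed liver the change was 0.02 for Iigp1 (adjusted p = 0.95) and 0.11 for Gbp3 (0.733). There Iigp1 was 10.06, 10.3 and 10.2 without the knockout and 10.13, 10.48 and 10.02 with it, and Gbp3 was 7.28, 7.95 and 7.78 against 7.74, 7.87 and 7.73.

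Among the transcription factors, Irf8, which directs gamma responses and dendritic cell and monocyte development, was 7.09, 7.23 and 7.04 in Stat3Δhc and 7.68, 7.57 and 7.59 in Mdr2-/- Stat3Δhc. All Mdr2-/- arrays were higher (0.49, SE 0.09, adjusted p = 0.00377), and the call held without any 1 array (0.00259 to 0.0215). In floxed liver it was 7.15, 7.49 and 7.33 against 7.52, 7.54 and 7.6 and did not pass (0.23, adjusted p = 0.128). Irf9, the DNA-binding part of the type I complex, was 7.54, 7.74 and 7.52 against 8.02, 7.86 and 7.89 in the Stat3-deleted groups, and 7.28, 7.48 and 7.5 against 7.59, 7.66 and 7.6 in the floxed groups. It was highest in Mdr2-/- Stat3Δhc and rose there (0.32, SE 0.09, adjusted p = 0.0303), a call that ended without Stat3Δhc A or C or Mdr2-/- Stat3Δhc A or C (0.0531 to 0.119). Irf1 and Irf7 had changes of 0.24 (adjusted p = 0.218) and -0.05 (0.835). A second Irf1 cluster gave 0.17 here, and in floxed liver 0.04 where the first gave -0.15.

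Of the nucleic acid sensors, Zbp1, which recognises Z-form nucleic acid and can start necroptosis, rose most. It was 6.53, 6.5 and 6.21 in Stat3Δhc, 7.21, 7.03 and 7.22 in Mdr2-/- Stat3Δhc, 6.99, 7.52 and 7.27 in floxed and 7.42, 7.46 and 7.53 in Mdr2-/- floxed. The 3 Stat3Δhc arrays were the lowest of the 12, and the rise from them was 1.67-fold (0.74, SE 0.13, adjusted p = 0.0023), called without any 1 array (0.00101 to 0.0128). Ddx58 encodes RIG-I, a cytoplasmic RNA sensor. It was 8.44, 8.53 and 8.55 against 8.83, 8.82 and 8.68 in the Stat3-deleted groups and 8.4, 8.52 and 8.59 against 8.86, 8.8 and 8.67 in the floxed groups. Its log2 change was 0.27 in both (SE 0.08), called in Stat3Δhc (adjusted p = 0.0455) and not in floxed liver (0.0544). The former call ended without any of 8 arrays, all but floxed A, Mdr2-/- floxed A and C and Mdr2-/- Stat3Δhc C (0.0546 to 0.149). The sensors Ifih1 and Dhx58 had changes of 0.23 and 0.22 (adjusted p = 0.107 and 0.182).

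Oasl2 was 6.87, 7.11 and 7.09 in Stat3Δhc and 7.14, 7.58 and 7.59 in Mdr2-/- Stat3Δhc (0.41, SE 0.12, adjusted p = 0.0371). Array A of the latter stood close to the former, and the call ended without Stat3Δhc A or C, floxed C or Mdr2-/- Stat3Δhc B or C (0.0514 to 0.135). Parp14 was 8.11, 8.26 and 8.37 against 8.96, 8.61 and 8.52, with array A highest (0.45, SE 0.12, adjusted p = 0.0256). Its call ended without Stat3Δhc A or Mdr2-/- Stat3Δhc A (0.0688 to 0.1). The genes called in floxed but not in Stat3Δhc liver had smaller changes in the latter for Rtp4 (0.38, adjusted p = 0.0714), Xaf1 (0.24, 0.102), Oas1a (0.16, 0.296) and Cmpk2 (0.08, 0.702). In Stat3Δhc and Mdr2-/- Stat3Δhc, Rtp4 was 7.74, 7.64 and 8.07 against 8.25, 8.17 and 8.16, and Xaf1 was 6.57, 6.31 and 6.58 against 6.77, 6.8 and 6.62. Oas1a was 6.2, 6.31 and 6.17 against 6.13, 6.44 and 6.6, Cmpk2 was 5.94, 6.15 and 6.27 against 6.29, 6.13 and 6.17, and Mx2 was 5.89, 5.44 and 6.07 against 6.71, 5.83 and 5.7. Rtp4 and Xaf1 again stood higher in all 3 Mdr2-/- arrays, while Oas1a, Cmpk2 and Mx2 overlapped.

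Bst2 (tetherin), which holds budding virus at the cell surface and marks plasmacytoid dendritic cells, went the other way. It was 9.17, 9.03 and 9.17 in Stat3Δhc and 8.47, 8.5 and 8.8 in Mdr2-/- Stat3Δhc. All 3 Mdr2-/- arrays were lower, a fall of 0.53 on the log2 scale (SE 0.1, adjusted p = 0.00321) that was called without any 1 array (0.000942 to 0.018). In floxed liver it was 9.02, 8.93 and 8.88 against 8.75, 8.92 and 8.89 (log2 change -0.09, adjusted p = 0.606). Trim21, a cytosolic antibody receptor and ubiquitin ligase, was 7.7, 7.73 and 7.66 against 7.54, 7.47 and 7.33 in the Stat3-deleted groups and 7.61, 7.55 and 7.6 against 7.55, 7.59 and 7.64 in the floxed groups. It fell by 0.25 on the log2 scale in the former (SE 0.08, adjusted p = 0.0431) and changed by 0.01 in the latter. That call ended without any of 10 arrays, all but Mdr2-/- floxed A and Mdr2-/- Stat3Δhc A (0.0534 to 0.134). It was also not called with cyclic loess (0.0962).

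**Figure D3:**
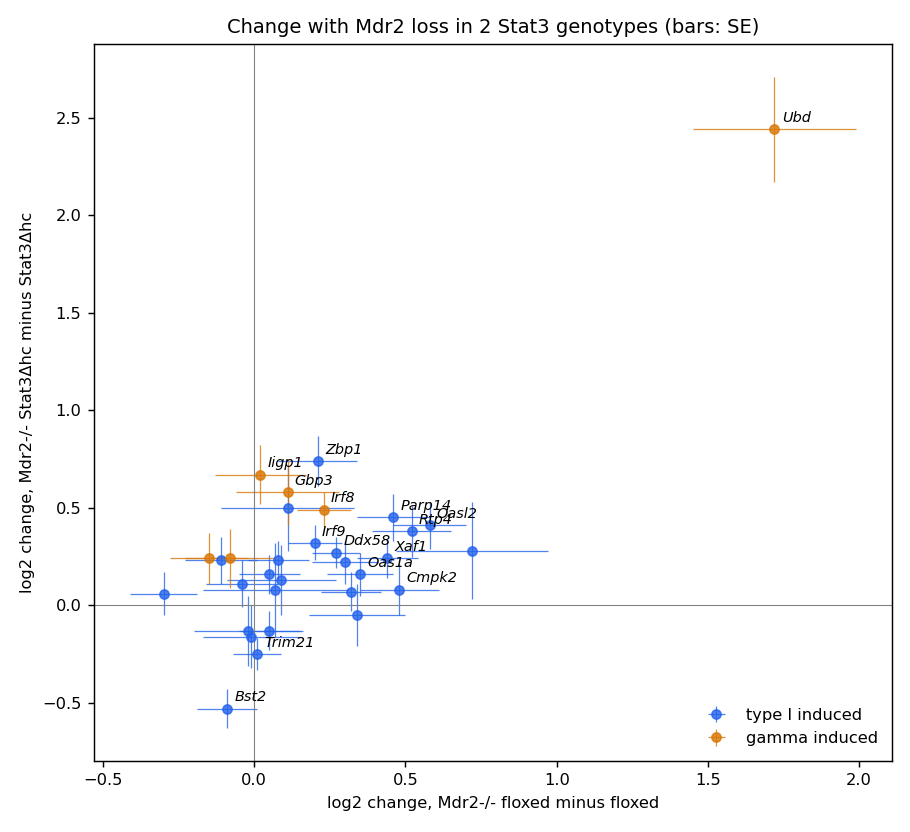
Log2 change with Mdr2 loss in floxed liver (horizontal axis) against Stat3Δhc liver (vertical axis) for the 32 tested members, with bars of 1 SE and the names of genes called in either. The axes share no arrays. Ubd lies at 1.72 and 2.44, apart from the rest, and Bst2 lies lowest, at -0.09 and -0.53.

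The Mdr2 comparisons, which share no arrays, called 15 members in either. Ubd, Oasl2 and Parp14 were called in both, which is 42.9% of the 7 in floxed liver and 27.3% of the 11 in Stat3Δhc liver. Ubd was tested only through the Mdr2-/- arrays. Of all tested genes 900 were called in both, which is 50.4% of those called in floxed and 37% of those called in Stat3Δhc liver. A call in 1 of them does not show a difference. The difference between the Mdr2 effects is, in this design, the same quantity as the difference between the Stat3 effects. It was called for 0 of 32 members (limma, with 3 positive and 2 negative at an unadjusted p under 0.05), where 16.9% of all genes had such a p. Of all genes 0.0715% were called, 0.0143% positive and 0.0572% negative. The difference was above 0 for 16 members and for 44.3% of all genes. The largest were Ubd (0.72, SE 0.38, adjusted p = 0.34), Iigp1 (0.65, SE 0.22, 0.229) and Zbp1 (0.53, SE 0.18, 0.23). The 6 gamma members were all positive, from 0.26 to 0.72 (median 0.43), and the 26 type I members ran from -0.44 to 0.53 (median -0.1), beside a median of -0.04 over all genes.

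Stat3 deletion without the Mdr2 knockout shows what the deletion alone does. Zbp1 was the 1 member called, and it fell by 0.84 on the log2 scale (SE 0.13, adjusted p = 0.00583), with 3 of 3 Stat3Δhc arrays under the lowest floxed array. It kept its call without any 1 array (0.00105 to 0.0367). No member rose, where 1.51% of all genes rose and 1.07% fell (2.58% in either direction), so that 1 fall and 0 rises among 32 stand near the background. With median centring 249 of 346 called genes were higher, against 211 of 361. The median was 0.08 over the members, 0.11 over type I and -0.12 over gamma members, and -0.01 over all genes, and 23 members against 48.5% of all genes were above 0. Groups did not overlap for 6 members that were higher and 3 that were lower, against 14.3% and 10.8% of all genes. The next changes were Ifit3 (0.41, SE 0.18, adjusted p = 0.279) and Iigp1 (-0.4, SE 0.15, 0.194). Ifit3, a partner of Ifit1 in binding foreign RNA, was 6.38, 6.66 and 6.65 in floxed, 6.86, 6.81 and 7.25 in Stat3Δhc, 6.41, 6.74 and 6.48 in Mdr2-/- floxed and 6.43, 7.22 and 6.87 in Mdr2-/- Stat3Δhc. The first pair did not overlap and the second did. Iigp1 was lower in all 3 Stat3Δhc arrays than in the floxed arrays.

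Stat3 deletion on the Mdr2 knockout is the comparison nearest the study's aim. Ifit1, which binds viral RNA lacking the host cap, was the 1 member called. It was 6.24, 6.6 and 6.4 in floxed, 6.36, 6.58 and 6.64 in Stat3Δhc, 6.25, 6.15 and 6.51 in Mdr2-/- floxed and 6.71, 6.76 and 6.82 in Mdr2-/- Stat3Δhc. The last group was the highest and did not overlap the others, and Ifit1 rose on the knockout (0.46, SE 0.12, adjusted p = 0.0398). That call ended without Stat3Δhc B, floxed C, Mdr2-/- floxed A or B, or Mdr2-/- Stat3Δhc B or C (0.0508 to 0.134), and in the sex-adjusted fit (0.447). No member fell. Of all genes 1.87% rose and 3.9% fell (5.77% in either direction), so that 1 rise stands near the background. With cyclic loess 477 of 947 called genes were higher, against 261 of 806. Ubd had the largest change and did not pass (0.61, SE 0.27, adjusted p = 0.162). It passed without array B of Mdr2-/- Stat3Δhc (0.96, 0.0418), the lowest of that group.

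Irgm1, a gamma-induced GTPase that regulates autophagy, was 7.95, 8.18 and 7.94 in Mdr2-/- floxed and 8.83, 8.27 and 8.09 in Mdr2-/- Stat3Δhc. Array A alone stood far above the rest, and the change did not pass (0.37, SE 0.15, adjusted p = 0.144). It was 8.04, 8.02 and 8.25 in floxed and 8.11, 8.17 and 8.19 in Stat3Δhc. That array was also the highest of the 12 for Irf1 (9.04) and Iigp1 (10.83). Over the members the median change was 0.09, with 0.01 over type I and 0.31 over gamma members and -0.03 over all genes, and 21 of 32 changes were above 0, against 45.6% of all genes. Groups did not overlap for 4 members that were higher and 3 that were lower, against 10.9% and 17.7% of all genes. The 6 gamma members were all above 0, from 0.06 to 0.61. The remaining members showed no call in any comparison. Among them Oas2 and Oas3, Oasl1, Ifit2, Usp18 (the protease that removes Isg15), Rsad2 (viperin), Eif2ak2 (the kinase PKR) and Ifi35 had log2 changes between -0.18 and 0.5 in the 4 comparisons of genotypes.

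**Figure D4:**
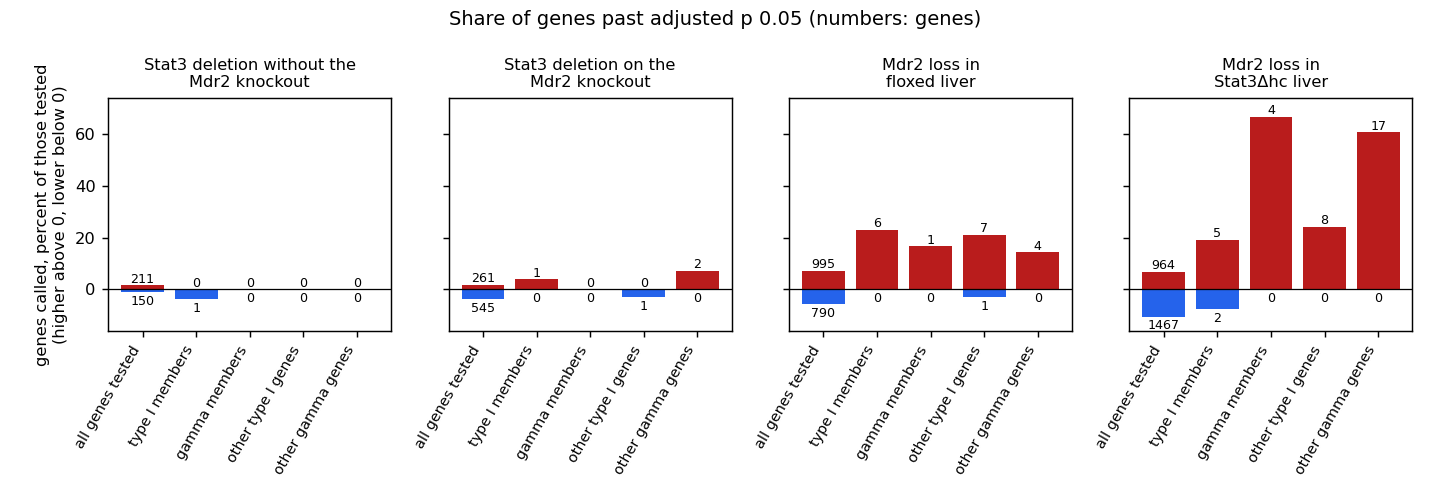
Percent of tested genes called (adjusted p under 0.05) higher (above 0) or lower (below 0) in 4 comparisons, for all tested genes, the type I and gamma members, and the other genes of each class, with the number of genes at each bar. In Stat3Δhc liver with Mdr2 loss, 4 of 6 gamma members and 17 of 28 other gamma genes were higher. The difference from Mdr2 loss in floxed liver was called for 0 of these 6 and 0 of these 28. The 4 include Ubd, which was tested only through the Mdr2-/- arrays.

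The ligands themselves gave little signal. Ifng was 5.64 ± 0.23 (SD, n = 3) in floxed, 5.53 ± 0.19 in Stat3Δhc, 5.44 ± 0.24 in Mdr2-/- floxed and 5.52 ± 0.25 in Mdr2-/- Stat3Δhc, and it was not called in any comparison. Ifnb1 averaged 4.56 to 4.77 and did not pass the filter, as was the case for 9 of the 15 measured ligand genes. Of the 6 tested, Ifnz, the interferon zeta gene, rose with Mdr2 loss in Stat3Δhc liver (0.52, SE 0.16, adjusted p = 0.04). The call ended without Stat3Δhc A, B or C, floxed B or Mdr2-/- Stat3Δhc B or C (0.0514 to 0.153). Of all tested genes 6.9% rose in that comparison.

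With Mdr2 loss in floxed liver 7.12% of all tested genes rose. Among 10 receptor, kinase and STAT genes, Ifngr1 and Ifngr2 rose there (0.57 and 0.39, adjusted p = 0.0114 and 0.0207). The latter call ended without floxed A or C or Mdr2-/- floxed A or C (0.0568 to 0.0838). In the sex-adjusted fit neither was called, at 0.07 (adjusted p = 0.91) and 0.4 (0.444). In Stat3Δhc liver Ifngr2 rose by 0.46 (adjusted p = 0.00755) and Stat2 fell by 0.35 (0.0109, and 0.0572 without Stat3Δhc C). There 6.9% of all tested genes rose and 10.5% fell. On the knockout, where 3.9% of all tested genes fell, Ifngr1 was lower by 0.55 with Stat3 deletion (0.0259). This call ended without any 1 Mdr2-/- floxed array or Mdr2-/- Stat3Δhc B or C (0.0619 to 0.0906). It also ended in the sex-adjusted fit, where the change was -0.22 (0.66).

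Of 10 brakes on the pathway, Irf2, which competes with Irf1 for its sites, and Adar, the RNA-editing enzyme that keeps host RNA from the sensors, rose with Mdr2 loss in floxed liver (0.44 and 0.36, adjusted p = 0.00515 and 0.00507). Neither was called in the sex-adjusted fit (0.45 and 0.31, adjusted p = 0.302 and 0.402). In Stat3Δhc liver 1 brake was called, Socs3, a Stat3 target that blocks cytokine receptors (0.56, 0.0367). Its call ended without Stat3Δhc A or C or Mdr2-/- Stat3Δhc A or C (0.0706 to 0.138). With Mdr2 loss 7.12% of all tested genes rose in floxed and 6.9% in Stat3Δhc liver. In the latter, 1 of 10 stands near the background. Pias1, a SUMO ligase, fell by 0.46 with Stat3 deletion on the knockout (0.0459), where 3.9% of all tested genes fell. The call ended without any of 8 arrays, all but Stat3Δhc B and C, floxed A and Mdr2-/- Stat3Δhc A (0.0553 to 0.123). It also ended in the sex-adjusted fit, where the change was -0.3.

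Where 7.12% of all tested genes rose with Mdr2 loss in floxed liver, 4 of 14 other nucleic acid sensors and adaptors rose. They were Ikbke, a kinase that activates interferon regulatory factors (0.78, adjusted p = 0.00772), Sting1, the DNA-sensing adaptor (0.61, 0.00764), Myd88 (0.45, 0.0242) and Ticam1 (0.39, 0.0123), adaptors of Toll-like receptors. Without floxed C 2 of these were called, and 0 in the sex-adjusted fit. In Stat3Δhc liver 3 rose, again Ikbke (1.16, 0.000587) and Sting1 (0.68, 0.00357) and also Tlr9 (0.49, 0.0405), and Mavs, the adaptor of RIG-I, fell by 0.44 (0.0163). There 2 were called without Stat3Δhc A or without Mdr2-/- Stat3Δhc C. Of all tested genes 6.9% rose and 10.5% fell in that comparison.

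Of 33 tested type I genes outside the 40, 7 were higher and 1 (Pml) was lower with Mdr2 loss in the floxed genotype (median 0.24). Of all tested genes 7.12% rose and 5.65% fell there. In the Stat3Δhc genotype 8 were higher and 0 lower (median 0.12), beside 6.9% and 10.5% of all tested genes. Ly6e, which blocks virus fusion, rose in both (1.28 and 1.49, adjusted p = 4.06e-05 and 9.37e-06), as did Ifitm3, an endosomal barrier to viruses (0.91 and 0.68, 6.25e-05 and 0.000562). Ms4a4c and Ifi27 rose in floxed liver (0.81 and 0.62, 0.0206 and 0.00296), and Slfn1, a Schlafen gene, and Ifi27l2a rose in Stat3Δhc liver (0.85 and 0.74, 0.00333 and 0.00183). The Ms4a4c call ended without floxed A or Mdr2-/- floxed C (0.07 to 0.0894). Ifitm3 was lower by 0.38 with Stat3 deletion on the knockout (0.0351), where 3.9% of all tested genes fell. The Ifitm3 call there ended without any of 6 arrays (0.0514 to 0.11). In the sex-adjusted fit its change there was -0.24 and it was not called. The floxed count was 5 without Mdr2-/- floxed C and 2 in the sex-adjusted fit. Of 28 other gamma genes, 4 rose in floxed liver (median 0.08) and 17 rose in Stat3Δhc liver (median 0.42, and 11 genes without Stat3Δhc C), beside 7.12% and 6.9% of all tested genes. The 4 were the class II antigen presentation genes Cd74 (1.14, 0.000448), H2-Ab1 (1.02, 0.00409), H2-Aa (0.96, 0.00677) and H2-Eb1 (0.81, 0.00127), and 0 were called there in the sex-adjusted fit. In Stat3Δhc liver the chemokine gene Cxcl10 rose most (2.29, 0.00204), followed by Cd74 (1.84, 7.67e-06), H2-Ab1 (1.68, 0.000129) and the chemokine gene Cxcl9 (1.65, 0.00255). The difference between the Mdr2 effects was called for 0 of these 28 genes (limma, lowest adjusted p = 0.0932). It was above 0 for 26 of them, against 44.3% of all genes, with a median of 0.33 against -0.04. Cxcl9 and Nos2 rose with Stat3 deletion on the knockout (1.34 and 0.74, adjusted p = 0.0209 and 0.0487), where 1.87% of all tested genes rose. The Cxcl9 call ended without Mdr2-/- floxed B or C (0.0555 to 0.0755). The Nos2 call ended without any of 10 arrays, all but Mdr2-/- Stat3Δhc A and B (0.0557 to 0.128). In the sex-adjusted fit, which depends on Mdr2-/- Stat3Δhc A, the changes were 2.13 for Cxcl9 and 1.36 for Nos2. Without the knockout 0 of 28 were called, with 0 higher and 9 lower at an unadjusted p under 0.05 (limma). Of all 13977 tested genes 1226 were higher and 1060 lower at such a p (16.4% in either direction).

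**Figure D5:**
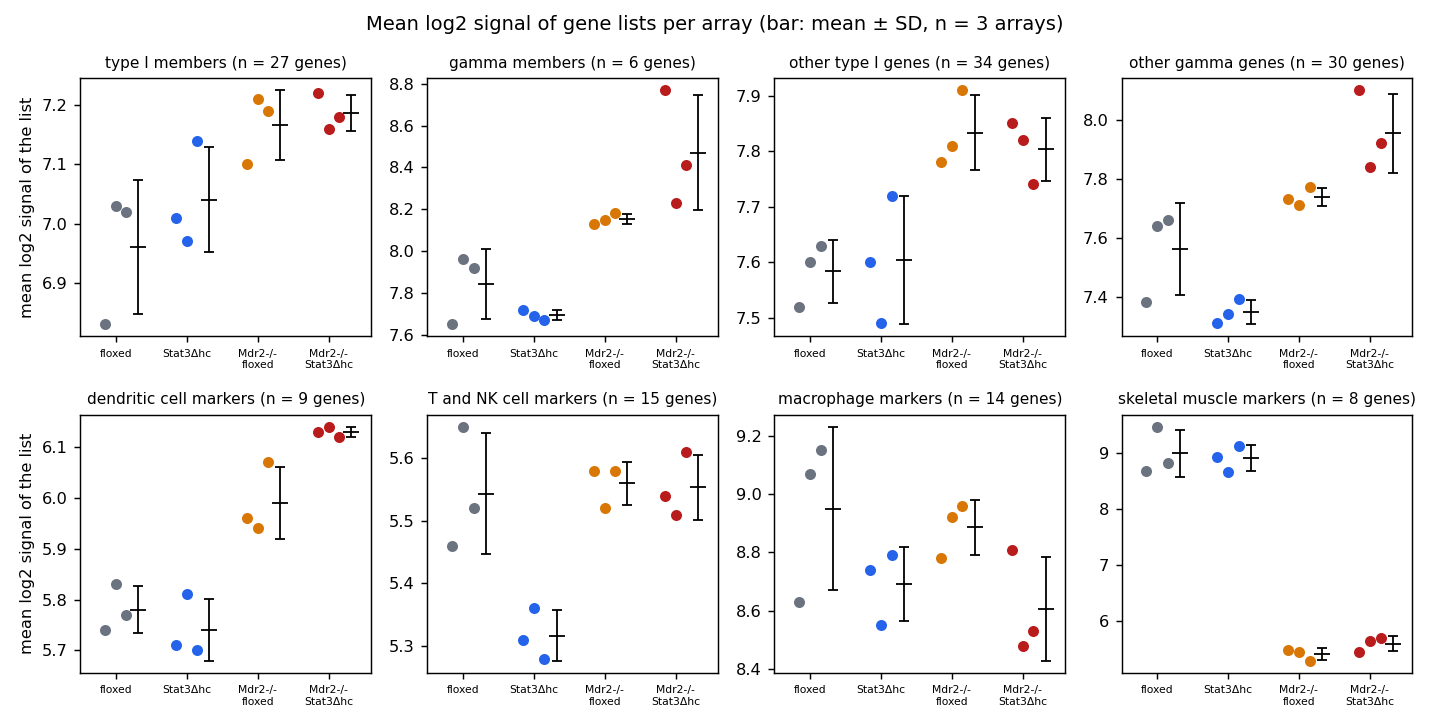
Mean log2 signal per array of 4 interferon gene lists and 4 lists of cell type markers, with points for arrays A, B and C and the mean ± SD of 3 arrays; the vertical axes differ and do not start at 0. The gamma members average 8.13 to 8.77 in the Mdr2-/- arrays and 7.65 to 7.96 in the others, a separation that Ubd carries in floxed liver (8.34 to 8.49 against 8.2 to 8.48 without it), and the dendritic cell markers 5.94 to 6.14 against 5.7 to 5.83.

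Markers of several cell types moved with some of these changes. The mean of the gamma members was 7.65 to 7.96 in floxed, 7.67 to 7.72 in Stat3Δhc, 8.13 to 8.18 in Mdr2-/- floxed and 8.23 to 8.77 in Mdr2-/- Stat3Δhc. Without Ubd, a choice made after the values were seen, the mean of the other 5 was 8.2 to 8.48, 8.19 to 8.23, 8.34 to 8.49 and 8.51 to 8.95. The floxed groups then overlapped, with a mean log2 change of 0.03, while the change in Stat3Δhc liver was 0.44. The mean of 9 dendritic cell markers, in the same order, was 5.74 to 5.83, 5.7 to 5.81, 5.94 to 6.07 and 6.12 to 6.14. Of 8 tested dendritic markers 1 rose in floxed liver (Siglech), and 4 rose in Stat3Δhc liver (Itgax, Siglech, Flt3 and Cd209a), where 7.12% and 6.9% of all tested genes rose. The mean of 15 T and NK cell markers was 5.46 to 5.65, 5.28 to 5.36, 5.52 to 5.58 and 5.51 to 5.61, so that it was lowest in Stat3Δhc. That was not particular to this list. The group means of 9 neutrophil markers, in the same order, were 5.42, 5.1, 5.43 and 5.36, though their arrays overlapped. Those of 6 B cell markers were 5.97, 5.74, 5.95 and 5.67. Of the 9 tested T and NK cell markers 0 rose with Mdr2 loss in floxed liver, and 4 rose in Stat3Δhc liver (Cd3e, Cd8b1, Nkg7 and Prf1). Cd3d, Cd4, Gzma, Klrb1c, Klrk1 and Ncr1 did not pass the filter. The 14 Kupffer cell and macrophage markers averaged 8.63 to 9.15, 8.55 to 8.79, 8.78 to 8.96 and 8.48 to 8.81. With Mdr2 loss Marco fell in floxed liver (-1.05, limma adjusted p = 0.0166), and in Stat3Δhc liver Cd68 rose and Mrc1 fell. Csf1r and Adgre1 fell with Stat3 deletion on the knockout, beside 3.9% of all tested genes. There 2 of the 14 changes were above 0, against 45.6% of all genes. Without the knockout 0 were called and 1 of 14 was above 0, against 48.5% of all genes. Of 6 endothelial markers 0 were called with Stat3 deletion on the knockout, where 0 of the 6 changes were above 0. With Mdr2 loss 1 of the 6 rose in floxed liver (limma adjusted p = 0.0131), and 2 fell in Stat3Δhc liver, Kdr and Lyve1 (both -0.63). Among 3 tested erythroid markers 2 fell in floxed and 3 in Stat3Δhc liver, beside 5.65% and 10.5% of all tested genes. The part of these cells, of sex and of the skeletal muscle transcripts in the results was not tested.

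The members did not vary as 1 block. Over the 12 arrays the median Pearson correlation was 0.21 over 325 pairs of type I members and 0.63 over 15 pairs of gamma members, and 0.12 and 0.4 after each group's mean was removed. The points share their arrays, and the values are a description. Bst2 and Trim21 had median correlations of -0.39 and -0.41 with the other members, and Ubd, Rtp4 and Gbp3 had the highest, at 0.53, 0.52 and 0.52. After the group means were removed the values were -0.06 and -0.1 for Bst2 and Trim21, and 0.13, 0.29 and 0.38 for Ubd, Rtp4 and Gbp3, with the highest at 0.43 for Rsad2. Floxed array A, with the lowest type I mean of the 12 (6.83, where the other 5 arrays without the knockout had 6.97 to 7.14), was the lowest of the 12 for Irf7, Usp18, Rsad2, Cmpk2 and Rtp4.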

How the data were processed

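The authors deposited log2 expression values for 12 Affymetrix mouse Gene 1.0 ST arrays of total liver RNA, normalized by RMA (version not named) per the submitters' processing notes. Values ran from 1.37 to 14.54, with array medians of 6.01 to 6.14 and correlations of 0.98 to 0.991 within groups. Probes were named through the platform annotation. Of 35556 clusters 21789 name 1 gene, 1621 several and 12146 none.

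Testing required a signal over the 40th percentile of the array on 3 or more arrays (13977 genes, 32 members). One limma 3.58.1 fit (R 4.3.3, lmFit and eBayes) of all 12 arrays, with 8 residual degrees of freedom and a prior of 4.82, gave the 5 comparisons, with Benjamini-Hochberg adjustment over all tested genes at 0.05. The fit was tested on simulated data. The 3 arrays per genotype limit the precision (median SE 0.11, and 0.155 for the difference).

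The members and lists were chosen with earlier results of these data known. Values per array are given for members called in any comparison and the 3 of largest change in each, and up to 4 called genes by size are named per other list. Other settings were no filter, a filter at the 60th percentile, averaged clusters per gene, cyclic loess, median centring, array weights, eBayes with trend and robust options, a block for the array letter, Xist and Y-linked signal in the model, only the compared groups, and leaving out each array. Promoters are RefSeq's, GRCm38.p6. Probe positions and scanner files were not used here. Python 3.11.15 and matplotlib 3.10.9 made the figures.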

Additional observations from a re-analysis of the deposited data

How the results depend on the processing

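Counts of called members changed with several settings. For Stat3 deletion on the Mdr2 knockout (1 member) the count was 0 with no filter and with only the compared groups, 2 with the 60th percentile filter and with cyclic loess (Irf9 and Ifit1), and 4 with array weights (Irf9 and Ifit1 higher, Zbp1 and Bst2 lower). It was 0 to 1 on leaving out an array. Without Mdr2-/- Stat3Δhc C the called member was Bst2, and in the sex-adjusted fit it was Irgm1, each in place of Ifit1. Stat3 deletion without the knockout (1) gave 6 with array weights and 1 on leaving out any array, and the difference of the effects (0) gave 1 with array weights (Bst2) and 0 on leaving out any array. For Mdr2 loss in floxed liver (7) the count was 2 in the sex-adjusted fit and 3 to 9 on leaving out an array (3 without floxed A or Mdr2-/- floxed C, 4 without floxed C). For Mdr2 loss in Stat3Δhc liver (11) it was 17 with array weights, 8 in the sex-adjusted fit (7 of the 11 and Oas1a), 5 with only the compared groups, and 5 to 11 on leaving out an array (5 without Stat3Δhc A, 7 without floxed C or Mdr2-/- Stat3Δhc C). The reversed value was that of Mx2 with Mdr2 loss in floxed liver, -0.22 in the sex-adjusted fit. The causes were not tested.

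The labels state no pairing of samples by array letter. Correlations of same-letter deviations ran from -0.41 to 0.37. They were not set against arrays of unlike letters, so they do not settle whether letters pair the samples. With the letter as a block the counts were 4 for Mdr2 loss in floxed liver and 7 in Stat3Δhc liver, and 1, 1 and 0 for the Stat3 comparisons and their difference. Over 65 gene results recomputed singly (the called genes and the largest changes), 1215 values kept direction and side of the threshold, 197 lost a call, 6 gained one and 1 reversed. Outside these 65, some settings also called Ddx58 in floxed liver, Rtp4 in Stat3Δhc liver and Irf9 on the knockout.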
